A study of Mus musculus with 18 samples.

Results

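Small leucine-rich proteoglycans are secreted matrix proteins with a core of leucine-rich repeats. The 10 genes of the family described here were Bgn (biglycan), Dcn (decorin), Aspn (asporin), Lum (lumican), Fmod (fibromodulin), Prelp, Omd (osteomodulin), Kera (keratocan), Ogn (osteoglycin) and Podn (podocan), chosen by name from the family list and found with 1 probe set each among 19937 genes. They were measured in 18 mouse adipose tissue samples, 1 per Affymetrix mouse gene array. There were 5 samples of brown adipose tissue (BAT) from control mice, 5 of BAT from FXR mice, 4 of white adipose tissue (WAT) from control mice and 4 of WAT from FXR mice. Control mice were wild type. FXR mice overexpressed human FXR, the farnesoid X receptor, a bile acid-activated nuclear receptor, specifically in adipose tissue. All were male C57BL/6J mice, 10 weeks old and fed chow. The promoter that drives the transgene, the depot of the WAT and whether a mouse gave both tissues are not stated in the labels. Control BAT 2 and 4 carried an added feeding period of 6 weeks in their extract text.

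Members of the family bind collagen fibrils and set the diameter and spacing of the fibrils as they assemble. Several also hold growth factors of the TGF-beta family in the matrix, and biglycan released from the matrix can act on Toll-like receptors of innate immune cells. In adipose tissue these proteins are made mainly by fibroblasts and adipocyte progenitors. The family is divided into classes by sequence, with Bgn, Dcn and Aspn in class I, Lum, Fmod, Prelp, Omd and Kera in class II, Ogn in class III, and Podn in class V.

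Many members lie beside each other in the genome. In the RefSeq gene table (GRCm38.p6), Aspn, Omd and Ogn followed Ecm2, a related leucine-rich gene, on chromosome 13, while Dcn, Lum and Kera stood in a row on chromosome 10 and Prelp lay beside Fmod on chromosome 1. Podn on chromosome 4 and Bgn on chromosome X had no family member as a neighbour. RefSeq promoters of that build were listed for 8 of the 10 members, and the 250 bases before the transcript start were searched on both strands for 6 motifs: TATA box (TATAAA), GC box (GGGCGG), AP-1 site (TGANTCA), SMAD box (CAGAC), nuclear receptor core motif (AGGTCA) and TEAD motif (GGAATG). The promoters of Bgn, with the smallest adjusted p among members in BAT, of the adjacent Aspn, Omd and Ogn, and of Podn and Prelp, whose changes differed between BAT and WAT in opposite directions, are given 5′ to 3′ on the gene's strand, with motif matches in capitals.
Bgn, chrX:73483351-73483600, plus strand: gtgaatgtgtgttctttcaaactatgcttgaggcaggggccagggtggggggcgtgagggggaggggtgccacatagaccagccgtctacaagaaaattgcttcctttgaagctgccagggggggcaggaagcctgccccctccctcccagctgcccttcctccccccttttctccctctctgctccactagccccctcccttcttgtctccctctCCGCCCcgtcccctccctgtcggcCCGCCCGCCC
Aspn, chr13:49544193-49544442, plus strand: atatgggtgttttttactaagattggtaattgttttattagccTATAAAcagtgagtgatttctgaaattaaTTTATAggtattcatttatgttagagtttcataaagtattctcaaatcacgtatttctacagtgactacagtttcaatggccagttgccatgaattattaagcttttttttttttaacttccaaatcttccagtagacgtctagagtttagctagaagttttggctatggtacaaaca
Omd, chr13:49582212-49582461, plus strand: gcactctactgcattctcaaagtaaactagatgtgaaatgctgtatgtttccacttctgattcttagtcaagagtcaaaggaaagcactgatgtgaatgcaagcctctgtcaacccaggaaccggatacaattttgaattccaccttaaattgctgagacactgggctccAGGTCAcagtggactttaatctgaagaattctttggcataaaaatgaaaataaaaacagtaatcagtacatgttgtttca
Ogn, chr13:49607765-49608014, plus strand: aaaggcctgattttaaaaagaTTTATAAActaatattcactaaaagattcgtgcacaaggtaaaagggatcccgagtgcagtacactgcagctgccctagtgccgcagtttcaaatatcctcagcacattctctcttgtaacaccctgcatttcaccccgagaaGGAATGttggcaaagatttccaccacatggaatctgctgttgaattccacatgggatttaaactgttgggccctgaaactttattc
Podn, chr4:108031955-108032204, minus strand: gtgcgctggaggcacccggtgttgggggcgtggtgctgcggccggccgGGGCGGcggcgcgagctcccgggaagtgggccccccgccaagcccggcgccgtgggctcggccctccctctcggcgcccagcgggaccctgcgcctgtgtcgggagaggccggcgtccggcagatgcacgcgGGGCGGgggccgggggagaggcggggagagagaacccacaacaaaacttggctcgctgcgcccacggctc
Prelp, chr1:133921402-133921651, minus strand: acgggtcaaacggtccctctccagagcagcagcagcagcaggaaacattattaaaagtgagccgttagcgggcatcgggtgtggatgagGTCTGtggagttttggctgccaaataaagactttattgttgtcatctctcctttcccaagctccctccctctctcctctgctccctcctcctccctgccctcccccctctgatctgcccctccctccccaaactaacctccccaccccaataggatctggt

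The promoters ranged from AT-rich to GC-rich even among members that moved together. GC content was 30.0% for Aspn, 38.4% for Omd, 42.0% for Ogn, 55.6% for Prelp, 64.4% for Bgn and 78.0% for Podn, against a median of 52.4% over 32851 RefSeq promoters. The GC box was found in Bgn, 34, 10 and 6 bases before the start with the last pair overlapping, and in Podn, 202 and 70 bases before it. It occurs in 32.7% of all promoters. The letters of the TATA box were found in Aspn, 207 and 178 bases before the start, and in Ogn, at 229 and 227 on opposite strands and overlapping, and occur in 12.4% of promoters. Ogn also held the TEAD motif (12.6% of promoters), Omd the nuclear receptor core motif (14.0%), and Prelp and Fmod the SMAD box (42.2%). The AP-1 letters, present in 6.75% of promoters, were in none of the 8 windows. These matches are letters in a window and not measured binding sites.

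The arrays gave 1 intensity per probe set on a linear scale, from 36.0 to 15980. Array medians were 93.1 to 99.9 in BAT and 60.5 to 61.7 in WAT, while the array floors, the 1% quantiles of the intensities, were 49.7 to 52.3 and 44.9 to 46.8. Levels may therefore not be comparable between the tissues, and each FXR effect was measured within a tissue. Arrays of a group correlated at 0.973 to 0.995. Brown adipocyte markers had a summed intensity of 24966 to 30366 on control BAT arrays, and 6 of 7 lay near the lowest intensities on every control WAT array. The mouse FXR gene Nr1h4 showed a log2 difference of 0.05 ± 0.03 (SE, n = 5 and 5) in BAT (limma adjusted p = 0.408), and its probe set is annotated to the mouse gene; whether it also reads the human transcript was not tested. Nr0b2, a classic FXR target in liver, differed by 0.07 ± 0.04 (limma adjusted p = 0.299). Both genes lay within 1.5-fold of the floor on every control BAT array and every WAT array, and a change at levels this low cannot be read. Samples of a group are called biological replicates in the design text. In tissue RNA, fewer cells of a type and less RNA per cell cannot be told apart.

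In BAT, 7 of the 10 genes were higher in FXR mice, 0 were lower and 3 did not pass the test, where 7.01% of all 19937 genes were called higher, 8.75% lower and 15.8% in either direction. Called means a limma p-value below 0.05 after Benjamini-Hochberg adjustment over all genes. Bgn and Ogn rose about as much as each other, by more than 3-fold, Aspn by nearly as much, Lum and Dcn by less, and Podn and Fmod least. The median log2 change of the 10 members was 0.76, and that of all genes 0.01. In 6 of the 10 members every FXR array lay above every control array, a separation found in 5.89% of all genes.

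**Figure D1:**
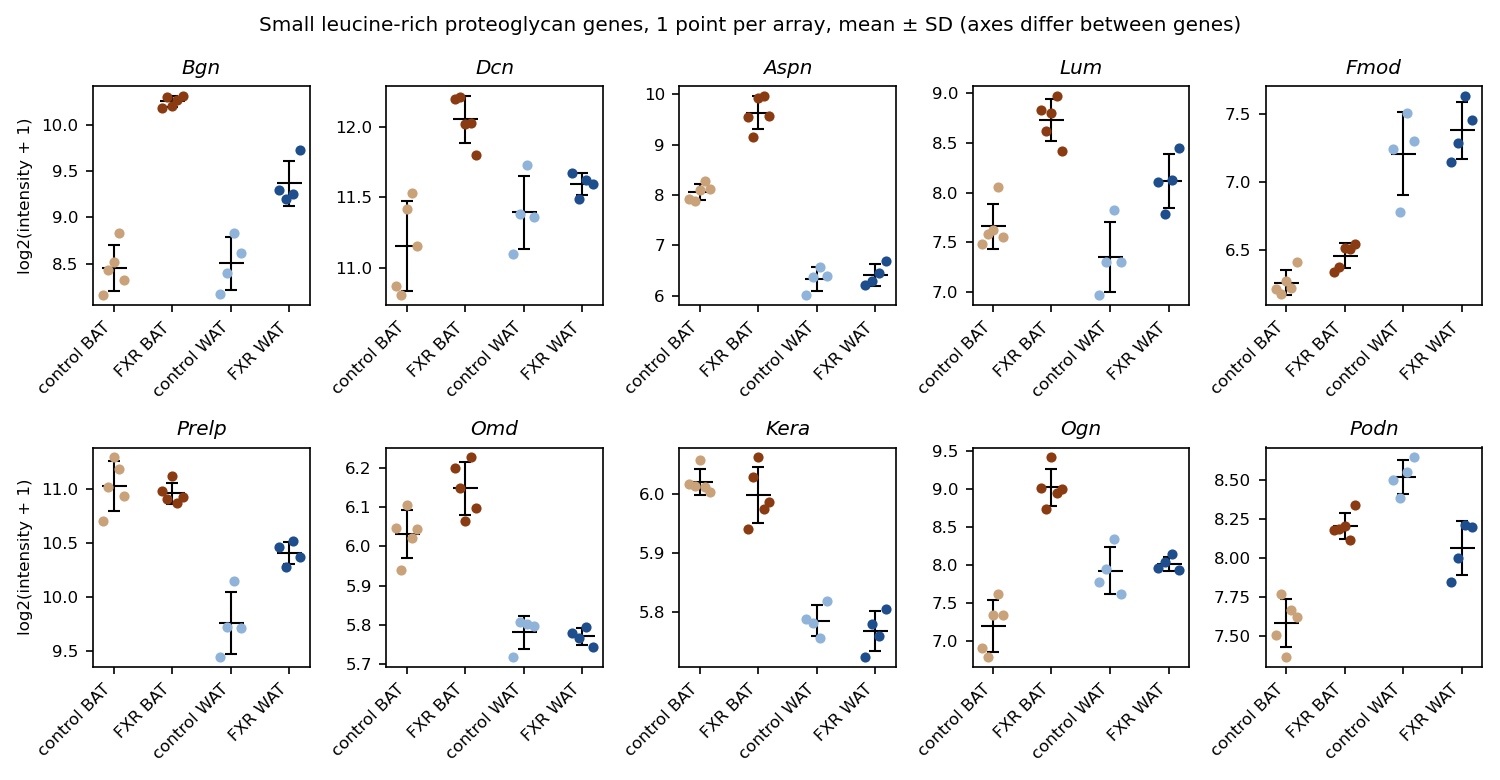
Levels of the 10 genes as log2(intensity + 1), 1 panel per gene and 1 point per array, with the group mean and SD as bars; the vertical axes differ between genes and levels are not comparable between genes. In Bgn, Dcn, Aspn, Lum, Ogn and Podn the 5 FXR BAT arrays lay above all 5 control BAT arrays, while Omd and Kera lay near the floor in all 4 groups.

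The class I genes encode the best-known collagen-binding members. Bgn, which carries glycosaminoglycan chains and binds collagen, had intensities of 285, 344, 366, 454 and 319.9 on control BAT arrays 1 to 5, and of 1159.7, 1259.6, 1172, 1232 and 1265 on FXR BAT arrays 1 to 5. The FXR arrays were tightly grouped and all above the highest control. The log2 change was 1.80 ± 0.10 (SE, n = 5 and 5), a 3.47-fold rise (limma adjusted p = 2.97e-06). Aspn, which lacks the usual chain attachment sites and binds collagen and TGF-beta, had intensities of 240.0, 234, 272, 308 and 276 in control BAT and of 750.1, 572, 970.2, 1001 and 760.1 in FXR BAT. The groups did not overlap, and the spread was wider in FXR BAT, where array 2 was lowest. Aspn rose by 1.58 ± 0.14 on the log2 scale, 2.99-fold (limma adjusted p = 6.8e-05). Dcn, which binds collagen fibrils and TGF-beta, had intensities of 1866, 1785, 2728, 2948 and 2277 in control BAT and of 4684, 4741, 4151, 4168 and 3562 in FXR BAT. Control arrays 1 and 2 were lowest for Dcn, and the lowest FXR array, array 5, was still above every control. Its log2 change was 0.90 ± 0.14 (SE, n = 5 and 5), 1.86-fold (limma adjusted p = 0.00162).

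The class II genes behaved unevenly in BAT. Lum, a keratan sulphate proteoglycan that shapes collagen fibrils in cornea and skin, had intensities of 177, 191, 196, 265 and 186 in control BAT and of 455, 393, 446, 502 and 341 in FXR BAT. The groups were separate, although control array 4 stood above the other controls. Lum rose 2.1-fold, with a log2 change of 1.07 ± 0.12 (limma adjusted p = 0.000227). Fmod, which acts in collagen assembly in tendon, had intensities of 73.1, 71.2, 76.2, 73.3 and 84.0 in control BAT and of 79.8, 82.0, 90.2, 90.0 and 92.3 in FXR BAT. These groups overlapped, and 3 of 5 control arrays lay within 1.5-fold of the array floor. Its log2 change of 0.20 ± 0.05 passed the test (limma adjusted p = 0.0314), but 7 of the 10 fits without 1 array did not call it, with adjusted p from 0.054 to 0.0823. Those 7 were the fits without control BAT 1, 2, 3 or 4 or FXR BAT 3, 4 or 5.

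Prelp, a class II member that binds collagen and heparan sulphate at basement membranes, did not follow the others in BAT although its level was well above the floor. Its intensities were 1674, 2079.5, 2512, 2339 and 1961 in control BAT and 2030.3, 1923, 2230.3, 1875 and 1944 in FXR BAT. The FXR arrays lay inside the control range, with a log2 difference of -0.07 ± 0.10 and a 95% interval of -0.28 to 0.15 (limma adjusted p = 0.729). Omd, known from bone, and Kera, known from cornea, lay within 1.5-fold of the floor on all 18 arrays. Omd had intensities of 60.3 to 67.9 in control BAT and 65.9 to 73.9 in FXR BAT, and Kera of 63.1 to 65.7 and 60.4 to 65.8. Their log2 differences were 0.12 ± 0.04 (limma adjusted p = 0.087) and -0.02 ± 0.03 (limma adjusted p = 0.71), and a change at levels this low cannot be read from these arrays. Omd passed the test in 1 of 10 fits without 1 array, the one without FXR BAT 3 (0.14, limma adjusted p = 0.0443).

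Ogn, the class III member, which modulates collagen fibril growth, had intensities of 119, 110.1, 161, 195 and 161 in control BAT and of 512, 424, 679, 493 and 512 in FXR BAT. Every FXR array was more than 2-fold above the highest control. The log2 change was 1.82 ± 0.16 (SE, n = 5 and 5), 3.53-fold (limma adjusted p = 6.42e-05). On chromosome 13, Ogn and Aspn thus rose together with Ecm2, which rose by 0.67 ± 0.12 on the log2 scale (limma adjusted p = 0.00292), while Omd between them stayed near the floor. Podn, of class V, known from kidney podocytes and vessel wall, had intensities of 181, 217, 164, 202 and 196 in control BAT and of 289, 289.7, 294, 276 and 323 in FXR BAT. The shift was small, yet the groups were apart, with a log2 change of 0.62 ± 0.07, 1.53-fold (limma adjusted p = 0.00024). Bgn, Dcn, Aspn, Lum, Ogn and Podn passed the test in all 22 alternative settings run for BAT.

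**Figure D2:**
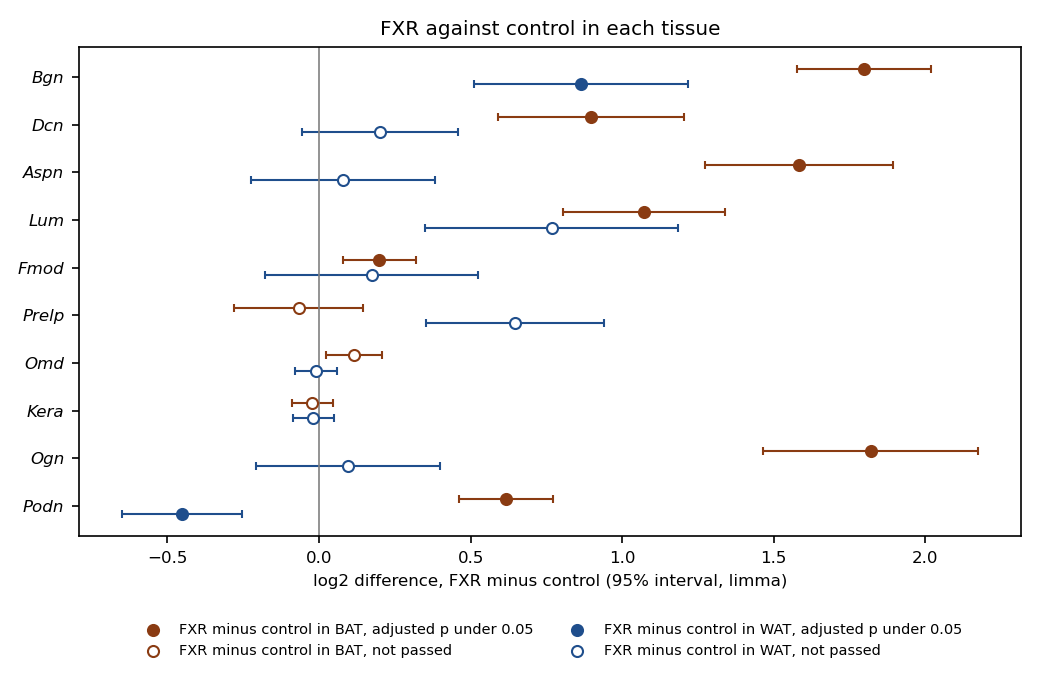
Log2 difference between FXR and control mice for each of the 10 genes in BAT (brown points) and WAT (blue points), with 95% intervals from limma; filled points passed an adjusted p of 0.05. In BAT 7 genes were called higher, while in WAT Bgn was called higher and Podn lower.

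Markers of other cell types moved with these genes in BAT, where 7.01% of all genes were called higher and 8.75% lower. Of 12 measured fibroblast and progenitor markers, 11 were higher in FXR BAT and 0 lower, and their summed intensity was 2115 to 2930.4 in control BAT and 5105 to 5415 in FXR BAT. No marker of that list lay near the floor on every BAT array. Pdgfra, a receptor that marks adipose progenitors, rose by 1.39 ± 0.11 on the log2 scale (limma adjusted p = 3.1e-05). All 12 macrophage markers were higher, with sums of 1592 to 2226 and 3096 to 3829.6, and none of them near the floor on every array. Of the mature adipocyte markers 10 of 12 were lower, with sums of 52167 to 60643 in control BAT and 43013 to 47793 in FXR BAT, and of the brown adipocyte markers 7 of 7, with sums of 24966 to 30366 and 17471 to 21360.0. Of 8 smooth muscle and pericyte markers 5 were higher and 1 lower, with sums of 3100.5 to 3443 in control BAT and 4189 to 4822 in FXR BAT, and 0 near the floor on every array. The part of these cell types in the change of the family was not tested.

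Skeletal muscle markers set FXR BAT arrays apart from each other. Their summed intensity was 2265 to 10957 in control BAT, 36916, 25615 and 36547 on FXR BAT arrays 1, 2 and 4, and 2512 and 8084 on arrays 3 and 5. Dcn was higher on arrays 1, 2 and 4 than on arrays 3 and 5, Podn and Fmod were lower there, and the other called members showed no such division. The margins were narrow. Arrays 4 and 3 had intensities of 4168 and 4151 for Dcn and of 90.0 and 90.2 for Fmod. For Podn, arrays 2 and 3 had 289.7 and 294. Without FXR BAT 1, 2 and 4 the same 7 genes passed the test, with log2 changes of 1.80 for Bgn, 2.01 for Ogn, 1.69 for Aspn, 0.95 for Lum, 0.76 for Dcn (limma adjusted p = 0.0372), 0.68 for Podn and 0.27 for Fmod (limma adjusted p = 0.0332). That fit kept only arrays 3 and 5 of FXR BAT, and called 1913 of all 19937 genes, 48.1% of them higher. Of the marker lists, 10 of 12 for fibroblasts and 11 of 12 for macrophages were called higher in that fit, as were 5 of 8 for smooth muscle, while 4 of 12 mature adipocyte markers and 6 of 7 brown adipocyte markers were lower. Tendon markers had sums of 414 to 449.9 in control BAT and 624 to 829 in FXR BAT. With all BAT arrays, 3 of 5 were called higher, beside 7.01% of all genes. Among them was Thbs4, a matrix protein of tendon and muscle, at 1.62 ± 0.15 (limma adjusted p = 8.22e-05). Without FXR BAT 1, 2 and 4, 2 of 5 were called higher. The part of the tendon markers in the result was not tested.

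**Figure D3:**
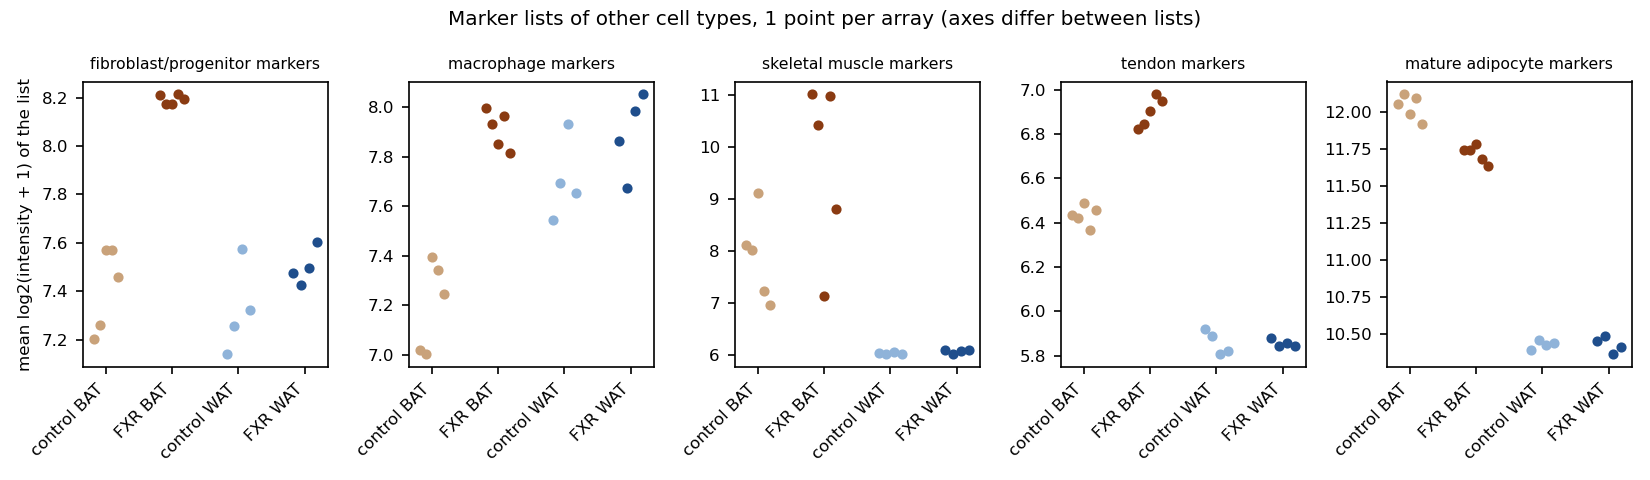
Mean log2(intensity + 1) of 5 marker lists, 1 point per array and 1 panel per list, with axes that differ between lists; levels may not be comparable between BAT and WAT, so the panels compare groups within a tissue. Fibroblast and macrophage markers were higher on all 5 FXR BAT arrays than on any control BAT array, and skeletal muscle markers were high on FXR BAT 1, 2 and 4.

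In WAT the family moved less and not in 1 direction. Bgn was higher and Podn lower in FXR mice, and 8 of the 10 genes did not pass the test, where 1.33% of all genes were called, 0.873% higher and 0.456% lower. The median log2 change of the members was 0.13, and that of all genes 0.00. Bgn and Prelp were higher, and Podn lower, without overlap of the groups, a separation found in 4.31% of all genes upward and 3.47% downward.

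Bgn had intensities of 287, 336, 456 and 391 in control WAT and of 626, 588, 609 and 845 in FXR WAT. All FXR arrays exceeded the highest control, and FXR WAT 4 was highest. The log2 change was 0.86 ± 0.16 (SE, n = 4 and 4), 1.82-fold (limma adjusted p = 0.0386). Podn had intensities of 360.4, 332, 374 and 398 in control WAT and of 229.8, 255, 296 and 293 in FXR WAT, so that here the order of the groups was the opposite of that in BAT. It fell by 0.45 ± 0.09 on the log2 scale, 1.37-fold (limma adjusted p = 0.047). Both calls were lost in most fits without 1 array, with changes of like size. Bgn passed the test in 1 of 8 such fits, the one without control WAT 3, and in the other 7 its log2 change was 0.75 to 0.92 (limma adjusted p 0.0654 to 0.124). Podn passed in 0 of 8, with a log2 change of -0.50 to -0.38 (limma adjusted p 0.0527 to 0.126). Over all genes, 265 were called with 8 arrays and 49 to 336 in these fits.

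Prelp and Lum did not pass the test in WAT. Prelp had intensities of 698, 848, 1139 and 842 in control WAT and of 1416, 1244, 1466 and 1325 in FXR WAT, with no overlap. Its log2 difference was 0.65 ± 0.13 (limma adjusted p = 0.0532). Lum had intensities of 124, 157, 226 and 157 in control WAT and of 274, 220.2, 279 and 348 in FXR WAT, where control WAT 3 overlapped the lowest FXR array. Its log2 difference was 0.77 ± 0.18 (limma adjusted p = 0.0965). Control WAT 3 was the highest control for Bgn, Dcn, Lum, Fmod, Ogn, Aspn and Prelp. Of 8 fits without 1 array, only the one without this highest control called Prelp (0.78, limma adjusted p = 0.0103) or Lum (0.93, limma adjusted p = 0.0297). In the other 7 neither gene passed.

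The other members did not separate the WAT groups. Ogn, so strongly raised in BAT, had intensities of 218, 247, 322 and 196 in control WAT and of 248, 261, 281 and 244 in FXR WAT, a log2 difference of 0.10 ± 0.13 with a 95% interval of -0.21 to 0.40 (limma adjusted p = 0.85). Aspn ranged from 63.2 to 93.8 on control arrays and from 72.6 to 102 on FXR arrays, within 1.36 to 2.22 times the floor, and a difference of 0.08 ± 0.13 (limma adjusted p = 0.886). Such dim values compress a change. Dcn was bright in both WAT groups, at 2189, 2663, 3394 and 2621 in control and 3250.5, 2864, 3147 and 3087 in FXR mice, with a log2 difference of 0.20 ± 0.11 and a 95% interval of -0.06 to 0.46 (limma adjusted p = 0.542). Fmod differed by 0.17 ± 0.15 (limma adjusted p = 0.742), with 109 to 181 on control arrays and 141 to 198 on FXR arrays. Omd and Kera stayed near the floor, with differences of -0.01 ± 0.03 (limma adjusted p = 0.942) and -0.02 ± 0.03 (limma adjusted p = 0.876).

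The fibroblast and macrophage lists that moved in BAT gave no calls in WAT, where 1.33% of all genes were called. Of 12 fibroblast markers 0 were called in WAT, with sums of 2148 to 3299 in control and 2916 to 3502 in FXR mice, and of 12 macrophage markers 0 were called, with sums of 2637 to 3502 and 2866 to 3767. Smooth muscle and pericyte markers, of which 1 of 8 was called higher, had sums of 1850.1 to 2084 in control and 2161 to 2771 in FXR mice, without overlap, and their part in the WAT changes was not tested. The sum of 5 epididymis markers was 830.4 on FXR WAT 1 and 266 to 303 on the other WAT arrays. Without FXR WAT 1, Bgn differed by 0.89 (limma adjusted p = 0.0753) and Podn by -0.38 (limma adjusted p = 0.07).

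The FXR effect itself was then compared between tissues, as the WAT change minus the BAT change over all 18 arrays. It differed in 6 of the 10 members, lower in WAT for 5 and higher for 1, where 6.46% of all genes differed, 2.02% lower and 4.44% higher. Ogn had the largest difference among members, -1.72 ± 0.23 (limma adjusted p = 0.000409), followed by Aspn at -1.50 ± 0.21 (limma adjusted p = 0.000567). Podn, whose change turned direction between the tissues, had a difference of -1.07 ± 0.12 (limma adjusted p = 9.49e-05). The difference for Bgn was -0.93 ± 0.19 (limma adjusted p = 0.00736), so its rise was larger in BAT than in WAT. Prelp was the member with the opposite sign, at 0.71 ± 0.17 (limma adjusted p = 0.0165). Its call was lost after quantile normalization (0.43, limma adjusted p = 0.168), without FXR BAT 1, 2 and 4 (limma adjusted p = 0.0812) and without control BAT 2 and 4 (limma adjusted p = 0.0663).

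For Dcn the difference between tissues was -0.70 ± 0.20 (limma adjusted p = 0.0457). Its call was lost in 13 of 18 fits without 1 array (limma adjusted p 0.0566 to 0.0881): those without control BAT 1, 2 or 5, FXR BAT 1, 2 or 4, control WAT 2, 3 or 4, or any 1 of the 4 FXR WAT arrays. Lum did not pass this test, with a difference of -0.30 ± 0.23 and a 95% interval of -0.79 to 0.18 (limma adjusted p = 0.531). Its rise in BAT was therefore not shown to differ from its change in WAT. Fmod differed by -0.03 ± 0.16 (limma adjusted p = 0.959), Omd by -0.13 ± 0.05 (limma adjusted p = 0.187) and Kera by 0.00 ± 0.04 (limma adjusted p = 0.974).

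The order of the groups differed from member to member. Bgn was highest in FXR BAT, then FXR WAT, with control WAT and control BAT overlapping below. Dcn and Ogn were also highest in FXR BAT without overlap, and their control and FXR WAT ranges overlapped. For Lum all neighbouring groups in the order overlapped, from FXR BAT through FXR WAT and control BAT to control WAT. Aspn was highest in FXR BAT, then control BAT, with the WAT groups overlapping far below. Fmod had the reverse tissue order, with the overlapping WAT groups above the overlapping BAT groups. Podn was highest in control WAT and lowest in control BAT, with FXR BAT and FXR WAT overlapping between them. Prelp was highest in the overlapping BAT groups, then FXR WAT, then control WAT.

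These orders across tissues are those of the values as deposited, in which nearly all genes were higher in BAT. Of all genes, 96.8% differed between control BAT and control WAT, with 94.8% higher and 1.98% lower in BAT and a median log2 difference of 0.59. Between FXR BAT and FXR WAT 96.4% differed, with 95.1% higher and 1.29% lower and a median of 0.63. Among the members 7 of 10 differed in control mice, 4 higher and 3 lower in BAT, and 9 of 10 in FXR mice, 8 higher and 1 lower. Only a few directions held when arrays were put on a common scale by quantile normalization or by median centring. Aspn was higher in BAT, by 1.72 ± 0.11 in control mice (limma adjusted p = 2.54e-08) and 3.23 ± 0.16 in FXR mice (limma adjusted p = 1.98e-08), and Fmod was lower in BAT, by -0.95 ± 0.12 (limma adjusted p = 9.5e-06) and -0.93 ± 0.09 (limma adjusted p = 2.77e-06). Podn (-0.93 ± 0.08, limma adjusted p = 2.99e-07) and Ogn (-0.72 ± 0.18, limma adjusted p = 0.00222) were lower in control BAT than in control WAT. The members' other called differences between tissues turned direction under at least 1 of these scalings.

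Within groups the members varied together in part. After subtracting each group's mean, the deviations of the 18 arrays correlated for Bgn and Lum (Pearson r = 0.78), Dcn and Prelp (0.75), Lum and Aspn (0.72), Dcn and Lum (0.69) and Ogn and Prelp (0.69). Prelp thus varied with other members from array to array, although its mean did not move with theirs in BAT. Podn correlated at -0.23 with Dcn, -0.08 with Ogn, 0.01 with Prelp, 0.13 with Lum and 0.17 with Aspn. It reached 0.34 with Bgn and 0.53 with Fmod. Fmod was also low with Dcn (0.11), Lum (0.25) and Bgn (0.28). Points of 1 array share the RNA sample, labelling and scaling, and these coefficients are descriptions.

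**Figure D4:**
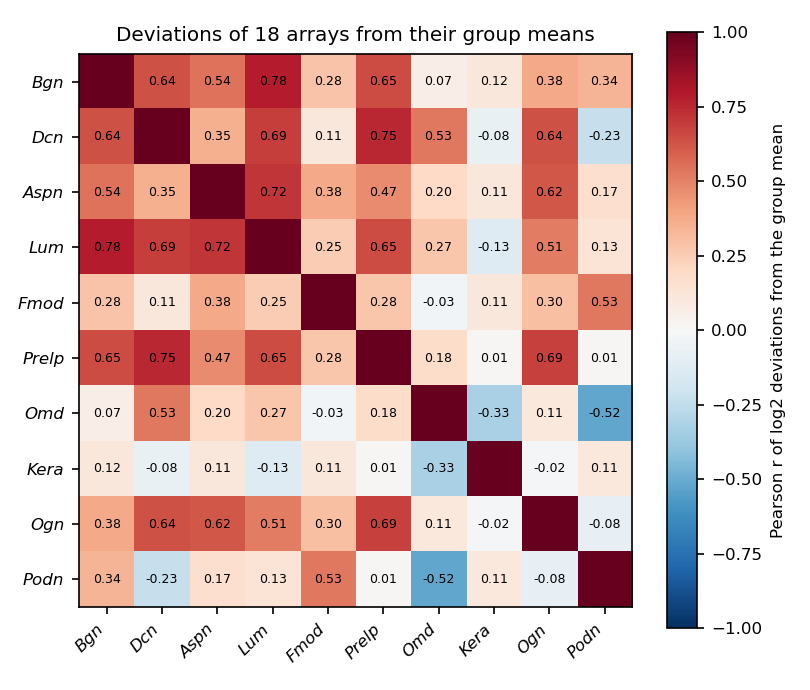
Pearson correlation of the log2 deviations of 18 arrays from their group means, for each pair of the 10 genes; red is positive and blue negative. Bgn and Lum reach 0.78, Dcn and Prelp 0.75, and Podn and Omd -0.52.

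Likeness to each member was measured as Pearson's r over the 18 arrays after subtracting each tissue's mean, and the 2 genes with the highest r were named. This measure keeps the FXR effect, so genes that changed alike score high. For Bgn they were Serpinf1 (r = 0.983) and Pcolce (0.981), a protein that enhances procollagen processing. For Dcn they were Serping1 (0.977) and Dpt (0.966), the matrix protein dermatopontin, which binds decorin. Ogn was closest to Gpc3 (0.975), a cell-surface heparan sulphate proteoglycan, and Antxr1 (0.969), Aspn to Emp1 (0.965) and Nox4 (0.964), and Lum to Ptgfrn (0.962) and Pam (0.95). The closest genes were less alike for Podn, with Thbs2 (0.893), a matrix protein that affects collagen fibrils, and Plxdc2 (0.849), for Fmod, with Tagap (0.872) and Cdh11 (0.84), and for Prelp, with Gramd3 (0.856) and Syp (0.847). Omd was closest to Tlr8 (0.922) and Fhl3 (0.906), and Kera to Wdr20 (0.827) and Map2k5 (0.775), at levels near the floor.

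The collagens that these proteoglycans bind rose with them in BAT. Of 15 collagens and fibril-associated proteins, 14 were higher and 0 lower, beside 7.01% higher and 8.75% lower over all genes. The median log2 change of the 15 was 0.87. Among them Thbs2 rose by 1.40 ± 0.07 (limma adjusted p = 1.42e-06), Col14a1, a fibril-associated collagen, by 1.75 ± 0.14 (limma adjusted p = 4.45e-05), and the microfibrillar collagens Col6a1 and Col6a2 by 0.85 ± 0.06 (limma adjusted p = 1.38e-05) and 0.72 ± 0.06 (limma adjusted p = 4.45e-05). In WAT 5 of the 15 were higher and 0 lower, with a median of 0.52, beside 0.873% higher and 0.456% lower over all genes. Thbs2 lay in the other direction there, at -0.96 ± 0.25, and did not pass the test (limma adjusted p = 0.122). Col12a1 rose by 0.36 ± 0.04 (limma adjusted p = 0.00734) and Col6a2 by 0.87 ± 0.12 (limma adjusted p = 0.0208). Without FXR BAT 1, 2 and 4, 14 of the 15 were still called higher in BAT, beside 1913 of all 19937 genes called in either direction.

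Proteins that process or cleave the matrix changed in part. Of 16 genes for proteases and processing factors of the proteoglycans, 7 were higher and 0 lower in BAT. Over all genes 7.01% were higher and 8.75% lower. The 7 included Pcolce (1.54 ± 0.11, limma adjusted p = 1.58e-05), the gelatinase Mmp2 (0.93 ± 0.09, limma adjusted p = 0.000121), the macrophage elastase Mmp12 (0.67 ± 0.07, limma adjusted p = 0.000185) and Bmp1 (0.54 ± 0.07, limma adjusted p = 0.000762), a proteinase that cleaves the biglycan propeptide. In WAT 2 were higher and 1 lower, beside 0.873% higher and 0.456% lower over all genes. Mmp2 differed there by 0.91 ± 0.12 (limma adjusted p = 0.0141) and the other gelatinase, Mmp9, by -0.54 ± 0.09 (limma adjusted p = 0.029).

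Among 25 receptors and ligands linked to the family, 9 were higher and 1 lower in BAT, beside 7.01% higher and 8.75% lower over all genes. Tgfb3, a TGF-beta ligand, rose by 1.03 ± 0.04 (limma adjusted p = 3.26e-07), Cd14, a co-receptor of Toll-like receptors and also a macrophage marker, by 0.24 ± 0.03 (limma adjusted p = 0.000729), and Bmp4 by 0.26 ± 0.04 (limma adjusted p = 0.00269). Kdr, a VEGF receptor of endothelium, fell by 0.78 ± 0.10 (limma adjusted p = 0.000333). Of 10 endothelial markers, Kdr among them, 3 were lower, 1 was higher and 6 did not pass the test, with sums of 4075 to 4791.5 in control BAT and 3233 to 4015 in FXR BAT. In WAT 1 of 25 passed, beside 1.33% of all genes, and this was Tgfb3 at 0.41 ± 0.06 (limma adjusted p = 0.024).

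Enzymes that build the glycosaminoglycan chains showed no shared direction. In BAT 3 of 33 were higher and 4 lower, shares near the 7.01% and 8.75% of all genes, with a median log2 change of 0.0054 beside 0.0108 over all genes. Dse, which converts chondroitin to dermatan sulphate, rose by 0.51 ± 0.07 (limma adjusted p = 0.000598), and Csgalnact2 and Dsel by 0.21 ± 0.05 (limma adjusted p = 0.0099) and 0.22 ± 0.05 (limma adjusted p = 0.0145). Chst11, a chondroitin sulphotransferase, fell by 0.52 ± 0.12 (limma adjusted p = 0.012). In WAT 0 of 33 passed the limma test, where only 1.33% of all genes were called.

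Other proteoglycans and relatives moved less uniformly. Of 21 core proteins outside the family, 5 were higher and 2 lower in BAT, beside 7.01% higher and 8.75% lower over all genes. Among the higher were Gpc3 at 1.65 ± 0.11 (limma adjusted p = 1.1e-05), Prg4 or lubricin at 1.05 ± 0.07 (limma adjusted p = 1.58e-05), Gpc6 at 0.63 ± 0.05 (limma adjusted p = 4.81e-05) and the hyaluronan receptor Cd44 at 0.49 ± 0.05 (limma adjusted p = 0.000112). In WAT 2 of 21 were higher, beside 0.873% of all genes, with Gpc1 at 0.41 ± 0.08 (limma adjusted p = 0.0403) and Ncan at 0.28 ± 0.05 (limma adjusted p = 0.0353). Of 7 further leucine-rich relatives measured, Ecm2 was called in BAT, where 15.8% of all genes were called. In WAT 0 of 7 were called, beside 1.33% of all genes.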

How the data were processed

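RNA of 18 samples was labelled with biotin and hybridised to 1 array each, per the labels' protocols. The table the authors deposited holds 1 intensity per probe set and array on a linear scale. Its summarisation and normalization are not stated in the labels. Of 34760 probe sets, 21640 had 1 gene symbol in the platform annotation, 1321 several and 11799 none, and the brightest single-symbol probe set stood for its gene. Fits used log2(intensity + 1) without a filter and were made two-sided in limma 3.58.1 (R 4.3.3; lmFit, eBayes), with p-values adjusted after Benjamini-Hochberg over 19937 genes and called below 0.05. The genotypes were compared over 10 BAT arrays and over 8 WAT arrays, and the tissues over all 18. The script was tested on simulated data. The SLRP members (small leucine-rich proteoglycans), the gene lists and the tests were chosen with earlier results of these data known, so they are no independent support. The genes named were all members and, per list, up to 4 called genes with the smallest adjusted p in BAT and up to 2 in WAT, the 2 genes most correlated with each member, and markers beside a result; Ecm2, Pdgfra and Thbs4 were named after their values were seen. Fits drop no array unless stated, and the number of arrays limits the precision.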

Additional observations from a re-analysis of the deposited data

Results flagged for a closer look

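The FXR effect differed between tissues, by limma's test of the WAT change minus the BAT change, in Bgn (-0.93), Dcn (-0.70), Ogn (-1.72), Aspn (-1.50), Podn (-1.07) and Prelp (0.71, the one difference in favour of WAT). Aspn lay within 2.22-fold of the floor on every WAT array, where a change is compressed.

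Of 40 groups of arrays tested (10 genes in 4 groups), 3 held 1 array apart from the rest by Dixon's 95% criterion, and chance gives about 1 in 20. Lum on control BAT 4 had a log2 level of 8.06 against 7.62 on the nearest control. Kera on control BAT 3 was at 6.06 with the nearest at 6.02, and Omd on control WAT 1 at 5.72 with the nearest at 5.80. Both genes were near the floor.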

How the results depend on the processing

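In BAT the count of small leucine-rich proteoglycan genes called was 6 to 8 over 22 alternatives, for the WAT change minus the BAT change 4 to 6 over 29, and all were within 1.5 times the reported counts of 7 and 6. The count in WAT, 2 as reported, was 0 with a pseudocount of 32, 0 after background subtraction, 4 with array weights, 4 in a fit of all 4 groups, and 0 to 3 when 1 array was left out; the cause was not tested. Genes called in WAT over the whole table numbered 265 as reported, 15 after background subtraction, 414 with array weights, 411 in the fit of all 4 groups and 49 to 336 when 1 array was left out. Fmod in BAT was not called after quantile normalization (0.16), median centring (0.12) or without control BAT 2 and 4 (0.16). Median centring moved the BAT calls over all genes from 3142, of which 44.5% were higher, to 4852, of which 16% were higher, and 1913 were called without FXR BAT 1, 2 and 4 and 1416 without control BAT 2 and 4. For the difference of the changes the 1288 genes called, 68.7% higher in WAT, became 826 with 56.1% higher after quantile normalization, 1872 with 86.9% higher after median centring and 727 without control BAT 2 and 4. Of the genes called between tissues, 98% were higher in BAT in control mice and 98.7% in FXR mice as deposited, 50.4% and 49.5% after quantile normalization (11541 and 10850 genes called), and 43.6% and 39.8% after median centring.

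Differences between tissues that turned direction were, for control BAT minus control WAT, after quantile normalization Lum (-0.91), Prelp (-0.51), Omd (-0.086) and Kera (-0.11), and after median centring Lum (-0.35), Omd (-0.41) and Kera (-0.43); Lum was not called as deposited. For FXR BAT minus FXR WAT they were, after quantile normalization, Bgn (-0.56), Dcn (-0.76), Lum (-0.66), Ogn (-0.27), Podn (-1.11), Prelp (-0.91), Omd (-0.0062) and Kera (-0.12), and after median centring Dcn (-0.27), Lum (-0.11), Podn (-0.59), Prelp (-0.17), Omd (-0.35) and Kera (-0.50). Both scalings bring the arrays of the tissues to 1 level, while the deposited medians differ.

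Groups share replicate numbers, but same-numbered arrays deviated together only in part (correlations of -0.49 to 0.28 between the BAT groups, 0.01 to 0.16 between the WAT groups, -0.08 to 0.26 between BAT and WAT of control mice and 0.06 to 0.13 between those of FXR mice). An array of 1 tissue correlated best with its own number in the other in 6 of 8 cases, a hint from the data, while not every pair exceeded 0.1, so the numbers were not taken to pair the samples. With the replicate number as a block, 7 members were called in BAT, 2 in WAT, 5 for the difference of the changes (Dcn lost, limma adjusted p = 0.094), 8 in control mice between tissues and 9 in FXR mice. For the difference of the changes the block joined control and FXR arrays of the same number within a tissue. A block joining BAT and WAT arrays of the same genotype and number was not fitted for that test. Over all 19937 genes the block called 2741 in BAT, 237 in WAT and 1174 for the difference of the changes. Between tissues it called 19302 in control mice and 19156 in FXR mice.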
